A study of Homo sapiens with 6 samples.

Results

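The mitochondrial ribosomal protein genes were taken as the protein-coding genes of the deposited gene table whose symbol is MRPL or MRPS followed by a number and, in some, a letter. The choice used symbols and gene class alone and no measured value, though earlier results of these data were known when it was made. It gave 78 genes, 49 with an MRPL and 29 with an MRPS symbol, out of 46427 genes in the table, of which 19672 were protein coding. All 78 passed the filter on low counts, among 16557 genes tested.

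Mitochondria translate the few proteins encoded in their own DNA, all of them subunits of the respiratory chain and of ATP synthase, on a ribosome that descends from that of bacteria. Its large and small subunits combine rRNA transcribed in the mitochondrion with proteins that are encoded in the nucleus, made in the cytosol and imported. Some of these proteins have bacterial counterparts and others are specific to mitochondria. MRPS30 and MRPS18A belong to the large subunit in spite of their symbols, and MRPS36 is a subunit of the oxoglutarate dehydrogenase complex rather than of the ribosome.

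The cells were MDA-MB-231/RR, a radioresistant line derived from the human triple-negative breast cancer line MDA-MB-231, so the results are those of 1 line. Total RNA was sequenced from 3 samples co-treated with ortho-topolin riboside (oTR), a cytokinin-type adenosine derivative, and melatonin, and from 3 control samples. Both groups were the same line grown in the same medium, and the study asked whether the combination acted on these cells more than either compound alone through changes in metabolites and transcripts. The sources used here give neither doses, nor exposure times, nor what the controls received, and samples given either compound alone were not analysed here. The contrast is therefore that of the combination. The labels do not tell separate cultures from repeat samples of 1 culture. All p-values here therefore rest on the variation among the 3 samples of a group, and that variation may be technical. In bulk RNA, fewer cells of a kind and less RNA per cell cannot be told apart.

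The libraries held 50569611 to 72309015 estimated counts, and the 78 genes held between 720 and 11697 counts each in every library. Of the markers of this line, VIM stood at 2037 to 2694 TPM (a level adjusted for transcript length and library depth) in all libraries, PGR at 0, and ESR1 and CDH1 at no more than 0.0243 TPM. ERBB2, the third receptor that defines the triple-negative class, was not near 0 in RNA, at 28.3 to 37.4 TPM. Leukocyte, endothelial and liver markers reached at most 0.27 TPM, and of the fibroblast markers COL1A2 and DCN were at 0 while COL1A1 stood at 6.79 to 9.24 TPM. Nuclear rRNA made up 0.551, 1.07 and 0.479% of the counts in the co-treated libraries and 0.347, 0.370 and 0.294% in the control libraries, and its part in the results below was not tested.

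In co-treated cells 57 of the 78 mitochondrial ribosomal protein genes fell, 0 rose and 21 were not called (edgeR's quasi-likelihood test, Benjamini-Hochberg adjustment over all genes tested, threshold 0.05). The count of rises was also 0 at an unadjusted p under 0.05, with DESeq2 and with voom. Over all genes tested, 17.1% fell and 16.6% rose, so the members' share of falls, 73.1%, lay far above the background. The changes were small. The median log2 fold change of the members was -0.23, with quartiles of -0.32 and -0.14, beside a median of 0.00 over all genes tested. Called members were between 1.10- and 1.53-fold higher in control cells, with a median of 1.22-fold. In 60 members every co-treated library lay below every control library, and in 0 members the reverse held, against 24.1% and 23.3% of all genes tested. The median member lay 0.26, 0.26 and 0.20 log2 units below the mean control level in the 3 co-treated libraries, and within 0.06 of it in each control library. The fall is thus spread over many members and present in each co-treated library.

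**Figure D1:**
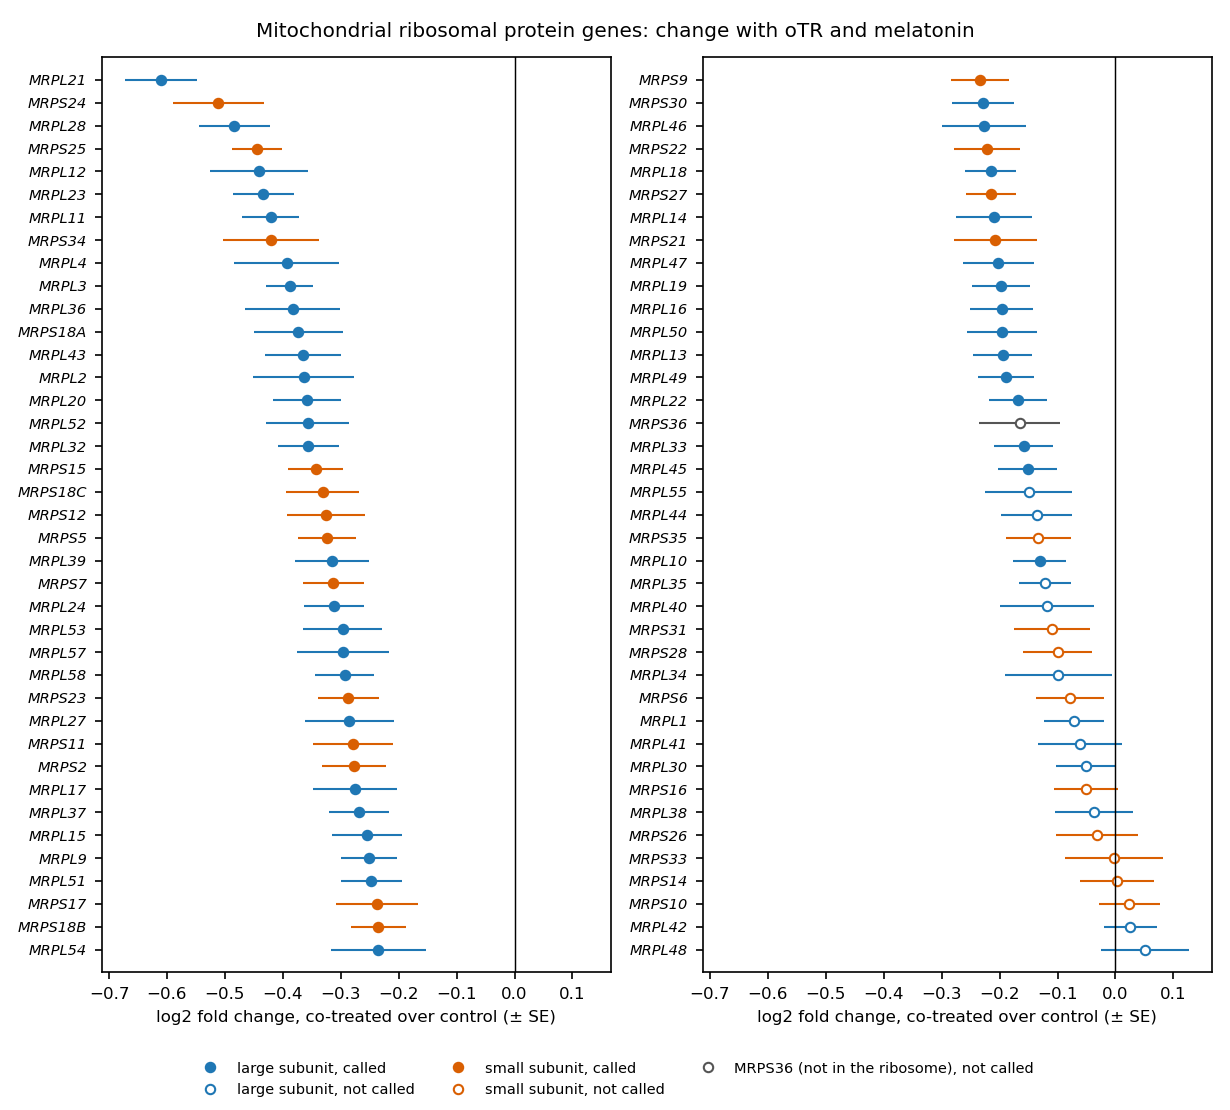
Log2 fold change of each of the 78 mitochondrial ribosomal protein genes, co-treated over control, with its standard error (3 libraries per group), in order of the estimate from the upper left to the lower right. Blue marks the large subunit, orange the small subunit and grey MRPS36; filled points passed the test. Estimates run from -0.61 for MRPL21 to 0.05 for MRPL48, and no member to the right of 0 was called.

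The 10 largest falls included proteins of both subunits. MRPL21, the counterpart of bacterial L21 in the large subunit (chr11:68891276-68903832, GRCh38), had 26.4, 28.2 and 30.1 normalized CPM (counts scaled to library size) in co-treated libraries, against 42.6, 41.7 and 45.3 CPM in control libraries. The lowest control library thus held more MRPL21 than the highest co-treated one, and the log2 fold change was -0.61 ± 0.06 (SE, adjusted p = 6.75e-05, edgeR). MRPS24, the counterpart of bacterial S3, a protein of the mRNA entry side of the small subunit, lies at chr7:43866558-43869517. It had 49.9, 59.2 and 61.7 CPM in co-treated libraries and 76.0, 79.6 and 87.8 CPM in control libraries, a log2 fold change of -0.51 ± 0.08 (adjusted p = 0.000707). The readthrough gene that joins URGCP to MRPS24 had 8 to 57 estimated counts per library. Such counts are apportioned between overlapping genes, and the part of readthrough RNA in the MRPS24 counts was not tested. MRPL28 (chr16:366969-370538) had 61.3, 70.3 and 69.0 CPM in co-treated libraries, against 91.3, 89.8 and 99.5 CPM in control libraries, a log2 fold change of -0.48 ± 0.06 (adjusted p = 0.000236). For MRPS24 and MRPL28 too the groups stood apart.

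MRPS25 is a small-subunit protein specific to mitochondria, and its gene (chr3:15042251-15065315) gave some of the tightest replicates. Its levels were 83.0, 88.5 and 86.2 CPM in co-treated libraries and 116.7, 114.9 and 119.2 CPM in control libraries, a log2 fold change of -0.44 ± 0.04 (adjusted p = 5.80e-05). MRPL3, which in bacteria lies close to the peptidyl transferase centre, behaved alike, at 125.8, 122.7 and 123.3 CPM in co-treated libraries, against 160.3, 162.3 and 164.0 CPM in control libraries (log2 fold change -0.39 ± 0.04, adjusted p = 7.31e-05). These 2 genes had among the smallest spreads within a group. MRPL12, the counterpart of the bacterial stalk protein L7/L12 that recruits translation factors, and a protein also known to bind the mitochondrial RNA polymerase, was more variable. It had 98.3, 128.0 and 117.5 CPM in co-treated libraries and 148.5, 150.5 and 167.5 CPM in control libraries (log2 fold change -0.44 ± 0.08, adjusted p = 0.00247). The lowest library for MRPL12 was co-treated replicate 1, and the groups did not overlap.

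MRPL11, the counterpart of the bacterial stalk base protein L11, averaged 52.2 ± 1.8 CPM in co-treated cells and 69.8 ± 2.6 CPM in control cells (SD, n = 3 each), a log2 fold change of -0.42 ± 0.05. MRPL23 and MRPL4 are counterparts of bacterial proteins that line the tunnel through which the new chain leaves. MRPL23 averaged 34.2 ± 1.4 CPM in co-treated cells and 46.2 ± 1.4 CPM in control cells (log2 fold change -0.43 ± 0.05). MRPL4 was noisier, at 54.9 ± 7.1 CPM in co-treated cells and 72.2 ± 6.8 CPM in control cells (log2 fold change -0.39 ± 0.09), and did not pass on the scale log2(TPM + 1) (-0.22, adjusted p = 0.236). MRPS34, a mitochondria-specific protein of the small subunit, averaged 68.3 ± 4.1 CPM in co-treated cells and 91.3 ± 12.01 CPM in control cells (log2 fold change -0.42 ± 0.08). The adjusted p of these 4 genes lay between 0.000144 for MRPL11 and 0.00707 for MRPL4, and their groups did not overlap.

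**Figure D2:**
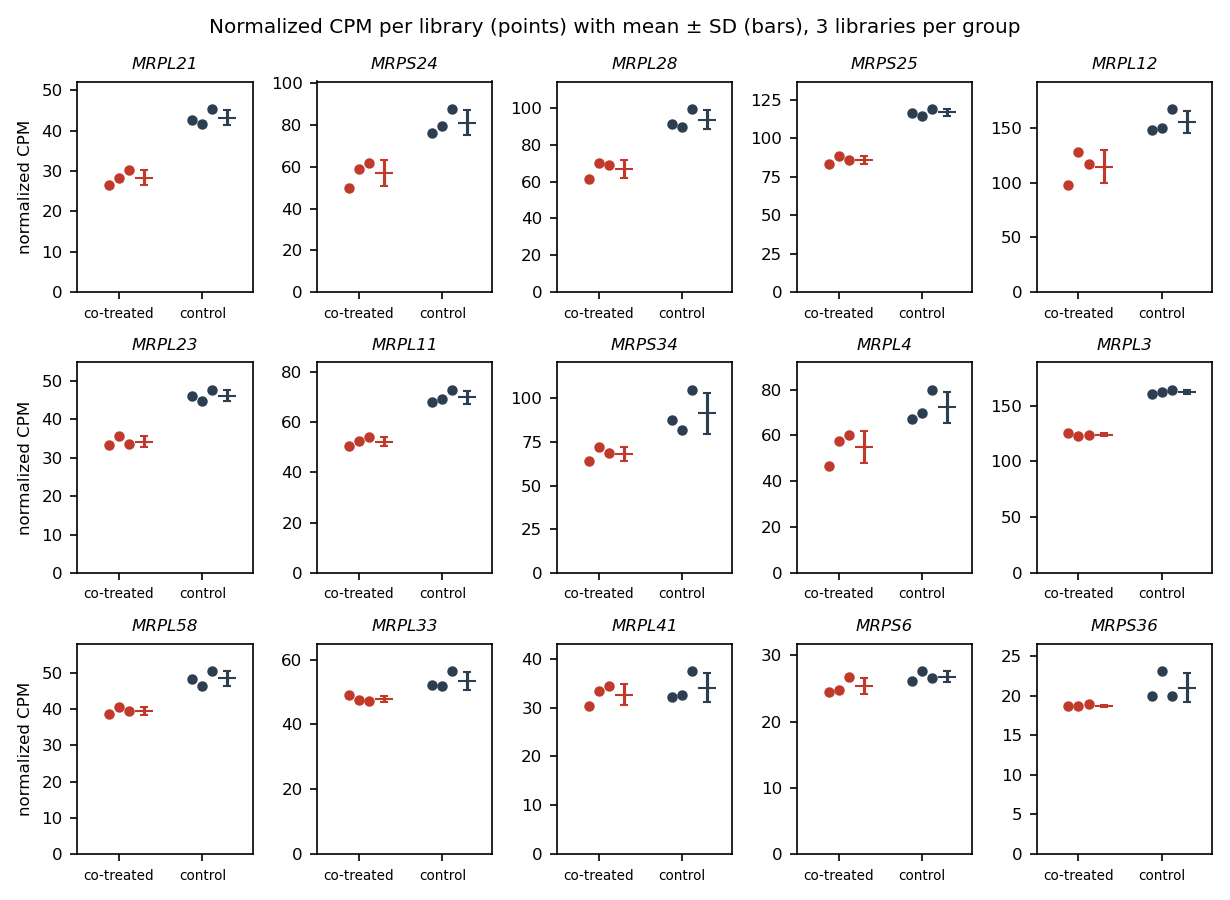
Normalized CPM of 15 members in each library (points), with the mean and SD of 3 libraries beside them, co-treated to the left of control; each vertical axis starts at 0. The first 10 panels are the 10 largest falls, in which the groups stand apart; MRPL41 and MRPS6 in the last row overlap between groups and were not called.

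Other members were examined for their roles or copies. MRPL58, a peptidyl-tRNA hydrolase built into the large subunit that can release chains from stalled ribosomes, had 38.6, 40.8 and 39.4 CPM in co-treated libraries and 48.4, 46.6 and 50.6 CPM in control libraries. It fell with a log2 fold change of -0.29 ± 0.05 (adjusted p = 0.00152, edgeR). MRPS12, the counterpart of the bacterial decoding protein S12, fell to 33.2 ± 2.6 CPM in co-treated cells, against 41.6 ± 2.3 CPM in control cells (SD, n = 3 each; log2 fold change -0.33 ± 0.07). All 3 counterparts of bacterial S18, which are paralogs of one another, fell. MRPS18A, in the large subunit, had a log2 fold change of -0.37 ± 0.08, MRPS18C, in the small subunit, -0.33 ± 0.06, and MRPS18B, also in the small subunit, -0.24 ± 0.05. MRPS30 fell with a log2 fold change of -0.23 ± 0.05. The adjusted p of MRPS12, MRPS18A, MRPS18B, MRPS18C and MRPS30 lay between 0.00251 and 0.00689.

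MRPL33, the counterpart of bacterial L33, lay near the threshold. It had 49.1, 47.4 and 47.2 CPM in co-treated libraries and 52.1, 51.7 and 56.5 CPM in control libraries, a log2 fold change of -0.16 ± 0.05 (adjusted p = 0.0339, edgeR). The groups did not overlap, but MRPL33 did not pass when control replicate 1 (adjusted p = 0.0532) or 3 (0.125) was left out, nor when co-treated replicate 2 (0.101) or 3 (0.115) was. MRPS36, the member that is no ribosomal protein, had 18.6, 18.7 and 18.9 CPM in co-treated libraries and 19.98, 23.1 and 19.95 CPM in control libraries. Its co-treated values were the lower ones without overlap, and it was not called (log2 fold change -0.17 ± 0.07, adjusted p = 0.0938), although it was called with a GC trend removed (-0.31, adjusted p = 0.00349).

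The 21 members that were not called had log2 fold changes between -0.17 and 0.05, and 4 of them were above 0. Beside MRPS36, MRPS35, MRPL35 and MRPL1 were lower in every co-treated library without passing the test. MRPL41, a large-subunit protein specific to mitochondria, had 30.3, 33.3 and 34.4 CPM in co-treated libraries and 32.2, 32.5 and 37.5 CPM in control libraries. MRPS6, the counterpart of bacterial S6, had 24.4, 24.8 and 26.8 CPM in co-treated libraries and 26.1, 27.7 and 26.6 CPM in control libraries. For both genes the libraries of the 2 groups were interleaved, with log2 fold changes of -0.06 ± 0.07 for MRPL41 and -0.08 ± 0.06 for MRPS6 (adjusted p = 0.556 and 0.339), and both estimates were above 0 on the TPM scale. The members thus did not all move alike. Their log2 fold changes had an SD of 0.14 between genes, beside a median standard error of 0.06 for a single gene.

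Members of both subunits and of both ancestries fell, in shares whose differences were not tested. In the large subunit 40 of 51 members fell, with a median log2 fold change of -0.24, and in the small subunit 17 of 26 fell, with a median of -0.23. Of the 48 members with a bacterial counterpart 38 fell, with a median of -0.25, and of the 29 specific to mitochondria 19 fell, with a median of -0.22. Summed over the large subunit, the level was 4692 ± 88 TPM in co-treated cells and 5185 ± 140 TPM in control cells (SD, n = 3 each). Over the small subunit it was 1981 ± 21 TPM in co-treated cells and 2173 ± 59 TPM in control cells. For each subunit the highest co-treated sum, 4758 and 1998 TPM, lay below the lowest control sum, 5082 and 2124 TPM. All 78 members together took 0.400 ± 0.010% of the counts in co-treated cells and 0.457 ± 0.014% in control cells.

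Members are parts of 1 particle, but their mRNA levels in TPM differed 36.4-fold between the highest and the lowest. On the TPM scale the mean over the 6 libraries ran from 294.7 TPM for MRPL12 down to 8.10 TPM for MRPS33, with a median of 84.1 TPM, against 12.2 TPM over all genes tested. After MRPL12 came MRPL33, MRPS24 and MRPL51 with mean levels of 229.5, 227.5 and 219.0 TPM. MRPL33 stood at 227.5 ± 8.6 TPM in co-treated cells and 231.6 ± 6.0 TPM in control cells, so the order among these 3 depends on the group: MRPS24, at 197.6 ± 18.3 TPM in co-treated cells and 257.4 ± 14.05 TPM in control cells, ranked below MRPL51 (210.2 ± 9.7 TPM) in co-treated cells and above it (227.8 ± 4.3 TPM) in control cells, and in co-treated cells the difference between MRPS24 and MRPL51 was within 1 SD of MRPS24. At the other end stood MRPL50, MRPS14 and MRPL42, at 19.9, 16.1 and 14.3 TPM. The order by TPM rests in part on the transcript length used. MRPL42, with a mean transcript length of 15573 bases, averaged 101.1 CPM in co-treated cells and 99.3 CPM in control cells. MRPS33, at 4242 bases, was low in CPM too, with a mean of 15.5 CPM in each group. MRPS14, at 16.8 ± 0.8 TPM in co-treated cells and 15.3 ± 0.3 TPM in control cells, and MRPL42, at 15.1 ± 0.3 TPM in co-treated cells and 13.5 ± 0.8 TPM in control cells, ranked in the same order in both groups.

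By TPM, falls were counted among members of both higher and lower level, in a larger share of the higher ones, and the difference between them was not tested. Among the 39 members with the higher mean TPM, 34 fell, with a median log2 fold change of -0.28, and among the 39 with the lower mean TPM 23 fell, with a median of -0.20. MRPL51 fell with a log2 fold change of -0.25 ± 0.05 (adjusted p = 0.00437, edgeR), and did not pass with the length trend removed (-0.11, adjusted p = 0.0911) or on log2(TPM + 1) (-0.12, adjusted p = 0.0707). MRPL50, the sole called gene among the 4 lowest, had -0.20 ± 0.06 (adjusted p = 0.0278), and did not pass when control replicate 2 (adjusted p = 0.0956) or 3 (0.0647) was left out, nor when co-treated replicate 2 (0.107) or 3 (0.0743) was. Across the 78 genes the log2 fold change had a Spearman rho of -0.41 with log2 mean TPM, of 0.26 with transcript length and of -0.38 with GC content. Over the 14377 tested genes with a known GC content, rho with GC content was -0.21, of the same sign. These coefficients describe genes measured in the same 6 libraries and are not tests.

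Transcript length moved with the change in the whole data set. Members are short, with a median of the mean transcript length of 1288 bases against 2939 bases over all genes tested, and short genes tended to fall: across all genes tested, rho between length and log2 fold change was 0.26. In each length class the share of members that fell was above that of the other genes. Below 1000 bases 18 of 23 members fell, with a median log2 fold change of -0.29, against 23.7% of the other genes, with a median of -0.18. From 1000 to 1500 bases 19 of 26 members fell (median -0.24), against 21.2% of the others (median -0.08). From 1500 to 2500 bases 12 of 16 fell (median -0.23), against 20.6% of the others (median -0.04), and from 2500 bases on 8 of 13 fell (median -0.20), against 13.6% of the others (median 0.06).

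**Figure D3:**
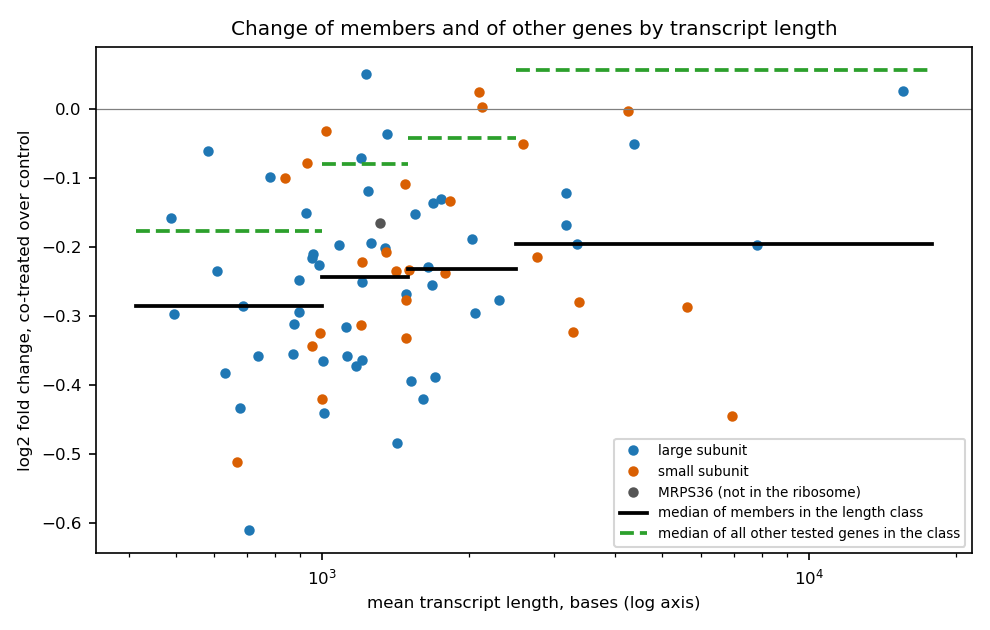
Log2 fold change, co-treated over control, of each member (points, coloured by subunit) against its mean transcript length in bases on a log axis. Solid black lines are the members' medians in 4 length classes, from -0.29 in the shortest to -0.20 in the longest, and dashed green lines the medians of all other genes tested, from -0.18 to 0.06; the members' line lies lower in each class.

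When the length trend was removed library by library, 43 members fell and 0 rose, against 17.7% of all genes tested that fell and 14.9% that rose, and the members' median was -0.15. On the scale log2(TPM + 1), tested with limma, 27 members fell, against 8.09% of all genes tested, and 1 member, MRPS10, rose (0.16, adjusted p = 0.0475), against 27.3%. The members' median was -0.10 there, while the median over all genes was 0.09. The size of the fall and the number of calls thus depend on the scale, and the members' median stayed below that of all genes on each. MRPL21 (-0.45), MRPS24 (-0.35), MRPL28 (-0.40) and MRPS25 (-0.55) remained called with the length trend removed, and MRPL33 (0.03), MRPL41 (0.12) and MRPS6 (0.05) then had estimates above 0 and were not called. On log2(TPM + 1), MRPS18B (-0.09, adjusted p = 0.0903), MRPS30 (-0.10, adjusted p = 0.117), MRPL33 (-0.03, adjusted p = 0.657) and MRPL50 (-0.06, adjusted p = 0.495) did not pass either.

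The calls were also examined library by library. With any 1 library left out, between 44 and 53 members fell and 0 rose, and 40 of the 57 called members passed in all 6 of these fits. Under all 21 alternatives together, 17 members remained called, among them MRPL21, MRPS24, MRPL28, MRPS25, MRPL23, MRPL11, MRPL3, MRPS18C and MRPL58. No share over all genes tested is given for the fits with a library left out or for all alternatives together, here or below. These counts therefore do not compare the members with other called genes.

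The start regions of the genes were read to see what the members share in sequence. RefSeq's table for GRCh38.p14 held 250 bases before and 50 after the start of 70 of the 78 members. Of 4 motifs searched on both strands, the letters AAGATGGCG, part of the motif known for the factor YY1, stood furthest above their share in tested genes. They were present in 13 of the 70 members (18.6%), against 1.85% of all 27305 promoters and 3.68% of those of tested genes. Among the promoters of cytosolic ribosomal protein genes, the most similar set, the share was 8.82%. In 9 members the letters lay on the gene's own strand, 7 to 36 bases after the start of transcription, and the ATG in them was an annotated start codon in GENCODE. Counting only matches after the start on the gene's strand, the share was 14.3% of members, 2.30% of tested genes and 1.06% of all promoters. The 9 windows are shown because the match falls on the place where translation of these proteins begins. They run 5′ to 3′ on the gene's strand, 24 bases each, with the matched letters in capitals.
MRPS24: gcttggcccAAGATGGCGgcctcc
MRPS18A: aggtttttgAAGATGGCGgccctc
MRPS18B: gcgtacgtcAAGATGGCGgcgtct
MRPS30: tcgcgggcaAAGATGGCGgcggcc
MRPL46: ggagaacgaAAGATGGCGgcgccc
MRPL50: atctcatcgAAGATGGCGgcgcga
MRPL22: ggagggcgaAAGATGGCGgcggca
MRPL38: gccggagggAAGATGGCGgcgccc
MRPS10: gggaccggcAAGATGGCGgcgcgg

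The MRPS24 window lies at chr7:43869484-43869507 on the minus strand, that of MRPS30 at chr5:44808951-44808974 on the plus strand and that of MRPS18A at chr6:43687768-43687791 on the minus strand. Members with and without the motif had close medians. Of the 13 members that hold it 10 fell, with a median log2 fold change of -0.23, and of the other 57 members 41 fell, with a median of -0.24. Of the 9 with the match at the start codon 7 fell, all but MRPL38 and MRPS10. MRPL46, MRPL50 and MRPL22 were called in 1, 2 and 3 of the 6 fits with a library left out, and MRPS24, MRPS18A, MRPS18B and MRPS30 in all 6. The NRF1 letters GCGCANGCG were present in 13 members (18.6%, against 14.3% of tested genes and 8.05% of all promoters). The E-box CACGTG was present in 7 (10.0%, against 10.0% of tested genes and 7.43% of all promoters), and the GABPA letters CCGGAAGTG in 5 (7.14%, against 4.79% of tested genes and 2.50% of all promoters). Among the promoters of cytosolic ribosomal protein genes, 10.3% held the NRF1 letters, 5.88% the E-box and 5.88% the GABPA letters. No motif is contained in another, and a match is a match of letters alone.

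Several members have a gene on the opposite strand that starts nearby, in some cases beyond the start region read above. For 18 of the 70 members the start of another protein-coding gene lay within 1000 bases on the other strand, and MRPS11 and MRPL46 are such neighbours of each other. Of these 18 neighbours 9 fell and 1 rose, with a median log2 fold change of -0.22. The falls include MRPS11 and MRPL46, which are members themselves. Over all genes tested, 17.1% fell and 16.6% rose. The remaining neighbours were not called and had estimates of either sign, such as HELQ beside MRPS18C (0.08 ± 0.07) and SARS2 beside MRPS12 (-0.15 ± 0.07). PSMA2, a proteasome subunit gene 202 bases from MRPL32, averaged 148.2 ± 0.8 CPM in co-treated cells and 176.8 ± 4.4 CPM in control cells (log2 fold change -0.25 ± 0.04, adjusted p = 0.000955, edgeR). FAU, which encodes a cytosolic ribosomal protein and lies 49 bases from MRPL49, had -0.49 ± 0.07 (adjusted p = 0.000343). TCP1, a chaperonin subunit gene 210 bases from MRPL18, and NCAPD2, a condensin subunit gene 840 bases from MRPL51, had -0.28 ± 0.04 and -0.29 ± 0.04. ZNF189, beside MRPL50, rose instead, to 15.3 ± 1.3 CPM in co-treated cells, against 12.2 ± 0.8 CPM in control cells (log2 fold change 0.33 ± 0.08, adjusted p = 0.00824).

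Transcript usage was tested because the gene values sum over transcripts. Of the 78 members 25 have a single transcript in the table, and 52 could be tested with limma's diffSplice after voom. The test called 0 of them, against 2.49% of 9961 genes tested. At an unadjusted p under 0.05 it gave 11 (21.2%), against 15.2% of all genes tested, and Simes adjustment gave 0. The smallest adjusted p, 0.0818, was that of MRPS12. Its 974-base transcript made up 29.9, 33.4 and 31.5% of the gene's TPM in co-treated libraries and 43.0, 38.6 and 40.5% in control libraries. The groups did not overlap for this share, and the difference did not pass. The second transcript of MRPL20, 1045 bases long, made up 14.4, 12.7 and 12.5% in co-treated libraries and 9.44, 9.71 and 8.57% in control libraries, also without overlap and not called. Without co-treated replicate 1, 1 member, MRPS2, was called (adjusted p = 0.0458).

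Reads of near-identical copies can be apportioned to the wrong gene. The table listed 48 pseudogenes with the symbols of 28 members, and 45 of them had at most 10 counts in every library. Together they held 0.192 to 0.234% as many counts as the members, mostly from MRPL45P2 and MRPS31P5. MRPL45P2 held 230 to 377 counts per library and MRPS31P5 195 to 346. Beside MRPL45 and MRPS31 alone, their weight is therefore larger than this pooled share. MRPL20-AS1, antisense to MRPL20, had 360 to 551 counts per library. Whether the libraries keep strand is not stated, so its reads and those of MRPL20 cannot be told apart where they overlap.

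Beyond the members, the other genes of mitochondrial translation were counted by list. Of the 5 proteins of the ribosome that carry other symbols 4 fell, with a median log2 fold change of -0.24, while 17.1% of all genes tested fell. GADD45GIP1, a large-subunit protein, averaged 53.4 ± 2.0 CPM in co-treated cells and 66.7 ± 5.0 CPM in control cells (log2 fold change -0.32 ± 0.06, adjusted p = 0.00206, edgeR). CHCHD1, in the small subunit, had -0.30 ± 0.08 (adjusted p = 0.0143), DAP3, the GTP-binding protein of the small subunit, -0.24 ± 0.05 and AURKAIP1 -0.24 ± 0.07, and PTCD3 was not called. Without control replicate 3 only 2 of the 5 fell, and CHCHD1 was lost (adjusted p = 0.0537). CHCHD1 also did not pass with the length trend removed (-0.16, adjusted p = 0.0693) or on log2(TPM + 1) (-0.16, adjusted p = 0.0909).

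Of 30 genes for assembly of the ribosome and modification of its rRNA 14 fell and 1 rose, with a median of -0.14. The shares over all genes tested were 17.1% and 16.6%. MRM1, a methyltransferase of the large-subunit rRNA, had 8.88, 10.2 and 10.5 CPM in co-treated libraries and 13.7, 13.4 and 14.1 CPM in control libraries, without overlap (log2 fold change -0.48 ± 0.08, adjusted p = 0.00106, edgeR). NDUFAB1, the mitochondrial acyl carrier protein that joins an assembly module of the large subunit, had -0.32 ± 0.05. METTL15, a methyltransferase of the small-subunit rRNA, rose (0.23 ± 0.07, adjusted p = 0.0213), and did not pass when control replicate 1 (adjusted p = 0.0623) or 3 (0.0877) was left out, nor when co-treated replicate 2 (0.0527) or 3 (0.0800) was. The count of falls in this list went down to 9 without control replicate 1 or co-treated replicate 2 and to 8 without control replicate 3.

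The list of translation factors held 16 genes. Beside initiation, elongation, release and recycling factors it took in LRPPRC, SLIRP, TACO1, OXA1L and MTFMT. Of these 16 genes 7 fell and 0 rose (0 also at an unadjusted p under 0.05), with a median of -0.10 that turned to 0.04 on the scale log2(TPM + 1). The shares over all genes tested were 17.1% down and 16.6% up. On log2(TPM + 1) 2 of the 16 fell, against 8.09% of all genes tested. SLIRP is an RNA-binding protein that stabilises mitochondrial mRNAs and helps present them to the ribosome. It had 30.4, 31.8 and 33.8 CPM in co-treated libraries and 44.8, 49.3 and 54.7 CPM in control libraries, without overlap (log2 fold change -0.63 ± 0.07, adjusted p = 0.000139, edgeR). TUFM, the mitochondrial elongation factor Tu, had 204.8, 233.9 and 228.5 CPM in co-treated libraries and 280.6, 278.3 and 320.5 CPM in control libraries (log2 fold change -0.40 ± 0.07, adjusted p = 0.00115). Leaving out a control replicate brought the number of genes of this list that fell to 3 (replicate 1) or 4 (replicate 2 or 3), and leaving out co-treated replicate 3 brought it to 3.

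**Figure D4:**
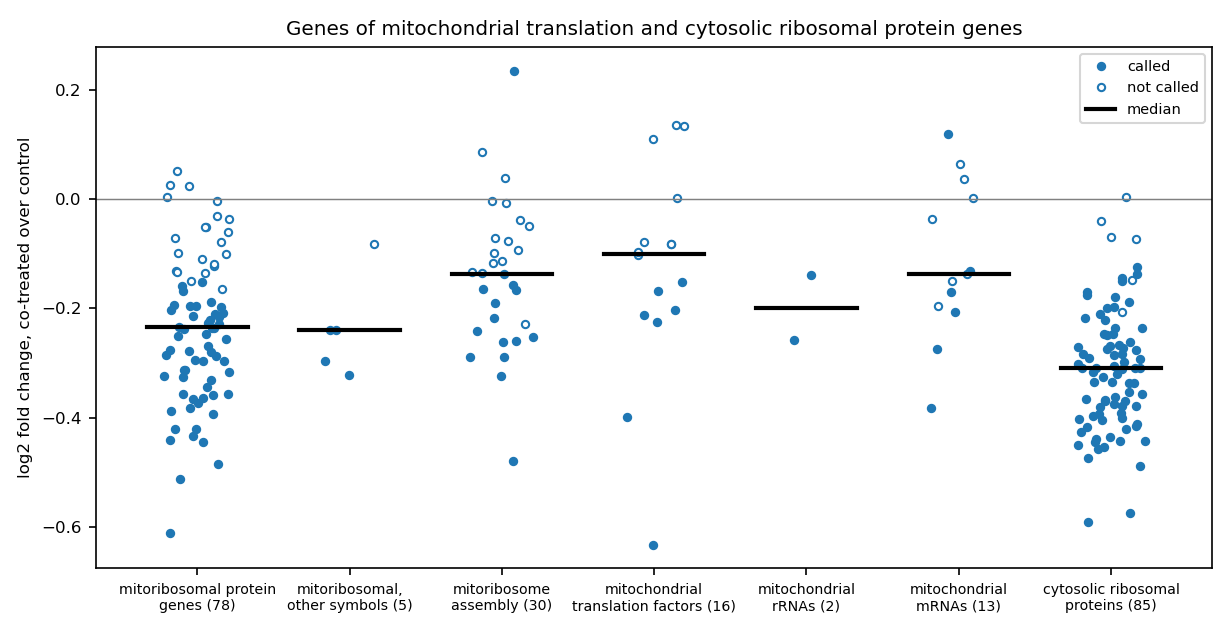
Log2 fold change, co-treated over control, of each gene (points, filled where called) in 7 lists, with the number of genes tested in parentheses and the list's median as a black line. The members (median -0.23) and cytosolic ribosomal protein genes (median -0.31) lie mostly below 0, and translation factors (median -0.10) and mitochondrial mRNAs (median -0.14) spread on both sides of it.

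The rRNAs that the members bind are encoded in mitochondrial DNA. Together these 2 rRNAs took 0.155 ± 0.005% of the counts in co-treated cells and 0.175 ± 0.004% in control cells, less than the mitochondrial mRNAs. Whether rRNA was removed or selected against before sequencing is not stated, so these values may not give the rRNA levels of the cells. RNR2, of the large subunit, had 1187, 1139 and 1097 CPM in co-treated libraries and 1385, 1380 and 1329 CPM in control libraries, without overlap (log2 fold change -0.26 ± 0.04, adjusted p = 0.000962, edgeR). It did not pass on log2(TPM + 1), where the estimate was -0.13 (adjusted p = 0.129). RNR1, of the small subunit, had 380.4, 383.3 and 371.6 CPM in co-treated libraries and 418.4, 408.2 and 424.0 CPM in control libraries (log2 fold change -0.14 ± 0.04, adjusted p = 0.0215). RNR1 did not pass when control replicate 1 (adjusted p = 0.0754), control replicate 3 (0.0718) or co-treated replicate 3 (0.0933) was left out, and its estimate was -0.01 with the length trend removed or on the TPM scale. Of the 13 mRNAs translated on these ribosomes 5 fell and 1 rose, with a median of -0.14. With the length trend removed 1 fell and 3 rose, with a median of 0.02, and on log2(TPM + 1) 1 fell and 1 rose. ND1 had -0.38 ± 0.04 and ND2 -0.27 ± 0.07, both subunits of respiratory complex I, and ND5, of the same complex, 0.12 ± 0.04 (adjusted p = 0.000122, 0.00828 and 0.0405). ND2 did not pass with the length trend removed (-0.16, adjusted p = 0.0756) or on log2(TPM + 1) (-0.14, adjusted p = 0.285). The ND5 call was lost with any 1 library left out other than co-treated replicate 2, at adjusted p between 0.0773 and 0.113. Summed, the 13 mRNAs stood at 120961 ± 5289 TPM in co-treated cells and 120380 ± 7221 TPM in control cells, a difference within 1 SD. Their share of the counts was 4.30 ± 0.19% in co-treated cells and 4.53 ± 0.24% in control cells, lower in the co-treated group by more than its SD and by less than that of the control group.

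The protein genes of the cytosolic ribosome had a lower median than those of the mitochondrial one: 79 of 85 tested fell, with a median of -0.31, led by RPL38 (-0.59 ± 0.07) and RPL37 (-0.57 ± 0.09). The share over all genes tested that fell was 17.1%. Cytosolic ribosomal protein genes too are short, with a median of 858 bases. With the length trend removed 62 of them fell and 1 rose, against 17.7% and 14.9% of all genes tested. Their median was then -0.20, beside -0.15 for the members.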

How the data were processed

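The authors deposited gene and transcript tables with estimated counts, FPKM and TPM, per the file headers; the 12 FPKM columns were not used. Per the submitters' processing notes, which state no roles, the build was GRCh38 and the tools were StringTie 2.1.3b, SAMtools 1.9, Bowtie2, HISAT2 2.1.0 and Trimmomatic 0.38. The estimated counts are apportioned values rather than whole reads, and were deposited as whole numbers. The column prefix Mo was read as the initials of melatonin and oTR. The members and lists were chosen with earlier results of these data known.

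Genes were filtered with filterByExpr (minimum count 10) and tested with edgeR 4.0.16 in R 4.3.3, with no covariate and with factors by relative log expression, the normalization the labels give. CPM values use the same factors. Standard errors given with edgeR estimates are the absolute log2 fold change divided by the square root of the test's F value. Alternatives used TMM, library size alone, DESeq2 1.42.0, limma 3.58.1 (voom, or log2(TPM + 1) and log2(TPM + 0.1)), other filters, a replicate block, each library left out, and lowess removal of length and GC trends (GC known for 86.8% of genes). Scripts were tested on simulated data. Named genes are the 10 largest falls, the 4 highest and lowest levels, members fixed for their roles, and the leading changes of each list; those in the paragraphs on start regions, transcript usage and copies were chosen afterwards. Figures were drawn with matplotlib 3.10.9.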

Additional observations from a re-analysis of the deposited data

How the results depend on the processing

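Across the 21 alternatives the members' median log2 fold change stayed below 0 and below that of all genes. It was -0.176 with library size alone and -0.185 with the 20 most abundant genes left out of that size, where the median of all genes was 0.06 and 0.05. It was -0.104, -0.106 and -0.104 with limma on log2(TPM + 1), log2(TPM + 0.1) and log2(TPM + 1) without a filter, and -0.154, -0.155 and -0.155 with the length trend, length and GC trends, or length trend and replicate block. On log2(TPM + 0.1) the median of all genes was 0.12, and the members' lay 0.23 below it. The same 3 TPM settings gave 27, 28 and 18 falling members; MRPS10 rose on the first 2 of them, and MRPS26 rose with length and GC trends removed (1 member each). Leaving out 1 library gave 44 to 53 falling members, a median between -0.27 and -0.20, and 0 to 1 members called for transcript usage.

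For the proteins with other symbols, 1 fell on each TPM setting, and 2 to 4 with a library left out. Their median was -0.18 and -0.19 with library size alone and without the abundant genes, -0.115 on the TPM settings, -0.18, -0.17 and -0.18 with trends removed, and -0.30 to -0.21 with a library left out. With library size alone 8 assembly genes fell, on the TPM settings 4, 4 and 3, and 8 to 13 with a library left out; 2 rose on the unfiltered TPM scale, 0 with a GC trend or both trends removed, and 0 to 1 with a library left out. Their median was -0.078 and -0.087 with the 2 library size settings, -0.016 on the TPM settings and -0.16 to -0.11 with a library left out. With library size alone 3 translation factors fell, on each TPM setting 2, and 3 to 6 with a library left out; 1 rose with library size alone or both trends removed, and 2 with length trend and replicate block. Their median was -0.041 and -0.050 with the 2 library size settings, 0.039, 0.040 and 0.039 on the TPM settings, -0.16 with the GC trend and -0.14 with both trends removed, and -0.14 to -0.09 with a library left out.

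The estimate of MRPL41 ran from -0.10 to 0.013 with a library left out, the highest without control replicate 3, and was above 0 on the TPM settings (0.071, 0.072 and 0.071) and with length trends removed (0.12, 0.10 and 0.12). That of MRPS6 was 0.051, 0.052 and 0.051 on the TPM settings and 0.051, 0.013 and 0.052 with length trends removed, and that of MRPL33 0.031, 0.019 and 0.029 with length trends removed. The cause was not tested. Over the named genes, 787 of the single-gene values kept direction and side of the threshold, 98 lost the call, 2 gained it and 16 changed sign. The labels do not state whether the replicate numbers pair the samples. Correlations of same-numbered deviations were 0.069, 0.00045 and -0.036, so no pairing was seen, though so few samples cannot settle it. The replicate block gave 58 falling members.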
